A study of Capra hircus with 2 samples.

Results

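Clean tags of 31 to 44 nucleotides (nt) form the tail of 2 small RNA libraries from goat (Capra hircus) mammary gland, beyond the size of a microRNA (miRNA). They were chosen by length alone, as every distinct tag whose deposited length lay from 31 to 44 nt in either library. This gave 18869 distinct tags of 504338 in all, carried by 47530 of 25417448 reads. The lactation library held 13994 of the long tags in 37588 reads, and the involution library held 5355 in 9942 reads. Only 480 of them (2.54%) occurred in both libraries, against 12.4% of the tags of 18 to 30 nt. In lactation 80.8% of the long tags were seen once, and in involution 82.8%.

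Small RNA tails of this kind carry pieces of abundant structural RNA. Ribosomal RNA (rRNA) makes up the ribosome as the 18S, 28S, 5.8S and 5S molecules. Transfer RNA (tRNA) brings amino acids to the ribosome, and ribonucleases such as angiogenin can cut it in the anticodon loop, which leaves a 5' and a 3' piece. Every mature tRNA ends in CCA, added after transcription, so a tag that ends in CCA can be the 3' piece. Mammary involution is the regression of the secretory tissue once milk is no longer removed.

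One library represented the gland at day 10 after parturition (early lactation). The other represented it at day 218 after parturition, 5 days after weaning was forced in late lactation (early involution). Each was 1 pool of RNA from 5 dairy goats, with no allele, agent or other treatment named in the labels, so there was no replicate, no test was possible and the spread between animals is unknown. Weaning and the time since parturition cannot be told apart. Fewer cells of a type and less RNA per cell cannot be told apart either, and small RNA tags hold no marker mRNA against which the tissue label could be checked. The libraries held 18031615 and 7385833 clean tags, and both had been size-selected for 18 to 30 nt, so tags of 31 nt and more lay beyond the stated window. Levels are tags per 1000000 clean tags (TPM), ratios are involution over lactation, and brackets give 95% intervals that cover counting error only. A count of 0 allows up to 3 reads, which is 0.166 TPM in lactation and 0.406 TPM in involution.

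The following tags carry the main patterns, written 5' to 3' as deposited, with T for U. Their names rest on general knowledge of these RNAs, and no reference sequence was used here to check them. The first set shows pieces that share a 3' end and differ by 1 base at the 5' end, with the shared last 18 bases in capitals.
18S-like, 32 nt: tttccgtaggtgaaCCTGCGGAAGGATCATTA
18S-like, 31 nt: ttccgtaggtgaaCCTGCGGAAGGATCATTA
28S-like, 33 nt: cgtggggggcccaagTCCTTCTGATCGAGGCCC
28S-like, 32 nt: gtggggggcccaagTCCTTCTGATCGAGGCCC
28S-like, 31 nt: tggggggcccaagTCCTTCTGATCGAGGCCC
5.8S-like, 33 nt: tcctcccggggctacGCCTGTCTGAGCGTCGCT
5S-like, 31 nt: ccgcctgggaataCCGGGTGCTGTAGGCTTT

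The second set shows tRNA-like tags, with the matched D-loop or T-loop motif and a final CCA in capitals.
glycine-like 5' piece: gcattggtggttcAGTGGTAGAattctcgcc
lysine-like 5' piece (CUU): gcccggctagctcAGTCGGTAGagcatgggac
lysine-like 5' piece (UUU): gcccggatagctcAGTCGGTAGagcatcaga
initiator-methionine-like 5' piece: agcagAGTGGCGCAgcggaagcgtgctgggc
valine-like 5' piece: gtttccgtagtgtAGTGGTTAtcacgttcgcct
3' piece with CCA: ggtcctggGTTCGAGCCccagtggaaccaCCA

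The length profile separated the libraries. Long tags made up 2085 TPM in lactation and 1346 TPM in involution, a ratio of 0.646 (0.632 to 0.660). On the rule's edge, tags of 30 nt stood at 1781 and 1325 TPM, and tags of 31 nt, the shortest counted, at 865 and 664 TPM. The level dropped from there to a trough of 18.3 TPM at 40 nt in lactation and 10.6 TPM in involution. In lactation it climbed again to 213 TPM at 44 nt, where involution had 21.1 TPM, 10.1-fold less (8.58 to 11.9). Tags of 41 to 44 nt thus held 17.3% of the long reads in lactation and 4.79% in involution.

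With adaptor-like and miRNA-matching tags set aside, the ratio depended on length. It was 2.04 (2.02 to 2.06) at 18 nt and 1.36 (1.35 to 1.37) at 26 nt, both higher in involution. From 27 nt on it lay below 1, at 0.539 (0.534 to 0.543). The fall was not steady. The ratio was 0.373 (0.37 to 0.38) at 29 nt and higher again, 0.600 (0.59 to 0.62), at 30 nt. Within the long tags it passed from 0.530 (0.510 to 0.550) at 31 nt through 0.349 (0.327 to 0.373) at 32 nt to 0.145 (0.116 to 0.179) at 34 nt. At 44 nt there were 388 such reads in lactation and 1 in involution, a ratio of 0.00629 (0.000159 to 0.0353). Every ratio of long tags below includes this trend with length, and its part in them was not tested.

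**Figure D1:**
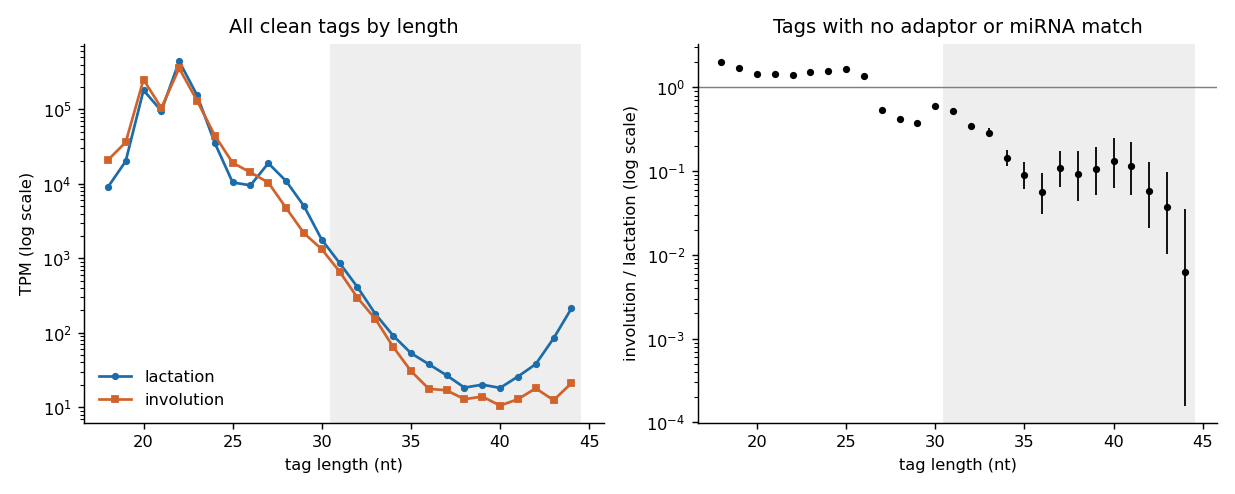
Left, level of all clean tags (TPM, log scale) by tag length (nt) in the lactation and involution libraries; right, ratio of involution to lactation (log scale) for tags with no adaptor motif and no miRNA match, with 95% counting intervals. Grey marks 31 to 44 nt. The right panel passes from 2.04 at 18 nt to 0.530 at 31 nt and 0.00629 at 44 nt. It rises between 29 and 30 nt.

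The largest recognised class was rRNA-like in lactation and adaptor-like in involution. rRNA-like tags were 32.2% of the long reads in lactation and 14.7% in involution, or 672 against 198 TPM, a ratio of 0.294 (0.278 to 0.311). tRNA-like tags were 6.79% and 5.68%, and tags with a miRNA match, joined pairs included, 15.4% and 4.37%. Adaptor-like tags were 1.58% in lactation and 44.1% in involution. Unrecognised tags made up 42.8% and 29.2% of the reads, at 891 and 393 TPM, a ratio of 0.441 (0.423 to 0.459).

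The motifs and starts of some other small RNA classes were rare at these lengths. Pieces of these RNAs without them are not counted here. C/D-snoRNA-like tags, which begin near a C box (TGATGA) as do the guide RNAs of rRNA methylation, had 89 reads in lactation and 6 in involution. Tags that start like Y RNA (GGCTGGTCC), a small RNA of the Ro particle, had 45 and 7 reads. Tags with 1 of 3 motifs of spliceosomal snRNA had 1 read in lactation and 2 in involution.

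**Figure D2:**
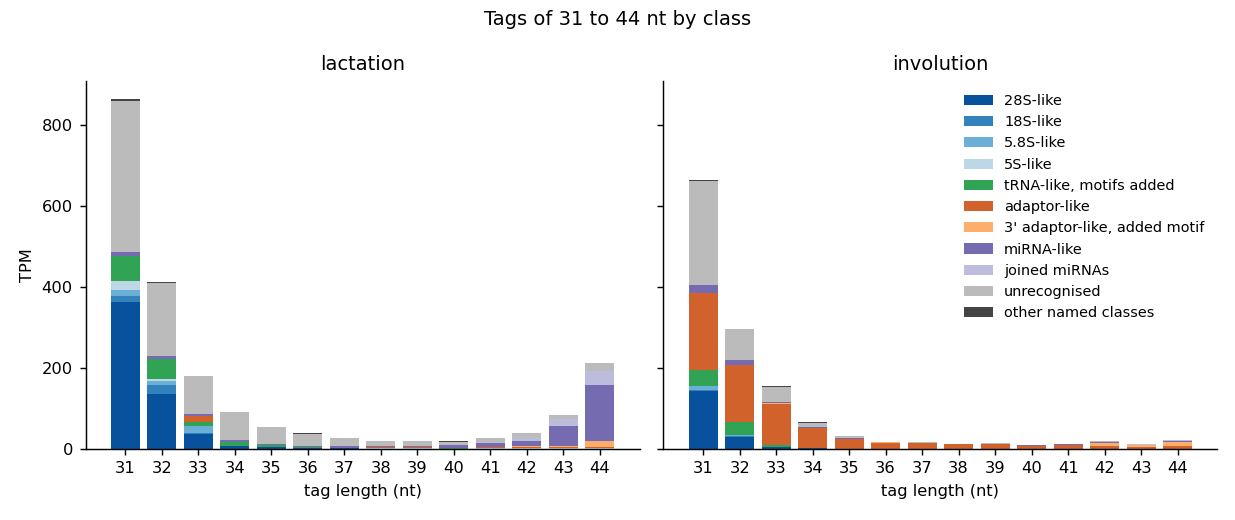
Level (TPM) of tags of 31 to 44 nt by length (nt), stacked by class, in lactation (left) and involution (right). The 28S-like tags reach 362 TPM at 31 nt in lactation against 142 TPM in involution, adaptor-like tags reach 190 TPM at 31 nt in involution, and tags matching miRNAs fill the lactation peak at 44 nt.

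The rRNA-like tags were found by a short list of motifs and starts, so they can come only from places that hold these. Pieces of rRNA without them would fall elsewhere, as among the unrecognised tags. Tags with a 28S-like motif had 9899 reads in lactation and 1314 in involution, or 549 and 178 TPM, a ratio of 0.324 (0.306 to 0.343). Most of these held CCCAAGTCC, the motif of the 28S-like ladder above, with 6918 and 885 reads. Of the distinct long tags 0.678% held that motif and none held its reverse complement. A few tags counted as 28S-like through ACTCTGGAC also hold CTGGACTCT and resemble glutamine tRNA, with 76 and 5 reads (ratio 0.161, 0.0507 to 0.392). Without them the 28S-like ratio was 0.325 (0.307 to 0.345). The 18S-like tags had 725 and 42 reads (ratio 0.141, 0.101 to 0.193), and the 5.8S-like tags 814 and 92 reads (0.276, 0.220 to 0.343). The 5S-like tags had 604 and 3 reads, the lowest ratio among these rRNA groups, 0.0121 (0.00249 to 0.0356).

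Pieces with the 3' end of 18S rRNA were long in lactation and short in involution. With the last 18 bases fixed, tags of 18 to 25 nt had 26 reads in lactation and 974 in involution, a ratio of 91.5 (62.0 to 141). Tags of 26 to 30 nt had 47 and 340 reads, a ratio of 17.7 (13.0 to 24.5). Here and below, counts at a length take in every tag with the named end, also those with other bases before it. At 31 nt the counts were 10 and 19, still higher in involution, at 4.64 (2.05 to 11.2). That is 0.555 and 2.57 TPM. The whole family of the 31-nt tag printed above held 0.222 and 2.03 TPM, so part of these reads had other 5' bases. At 32 nt, where the commonest tag has 1 more T, there were 293 reads in lactation and 4 in involution, a ratio of 0.0333 (0.00902 to 0.0863). This contrast between 31 and 32 nt was steeper than the trend over tags with no adaptor or miRNA match. That trend moved from 0.530 to 0.349 between the same lengths.

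The 28S-like fragment showed the same order in smaller steps. Its tags of 18 to 30 nt had 378 reads in lactation and 349 in involution, a ratio of 2.25 (1.94 to 2.61). Tags with this end had 2958 and 699 reads at 31 nt (0.577, 0.531 to 0.627) and 1506 and 104 at 32 nt (0.169, 0.137 to 0.206). At 33 nt they had 419 and 2 (0.0117, 0.00141 to 0.0424). Each of these steps in length thus went with a lower ratio. A sister series that ends 1 base earlier had 6003 and 1684 reads at 30 nt (0.685, 0.649 to 0.723) and 1855 and 45 at 31 nt (0.0592, 0.0431 to 0.0796). In both series the ratio was lower for the tag that starts at the G before the run TGGGGGG than for the tag that starts at its T. Of the tags that start at the G, the one with the last C had a ratio of 0.169 and the one without it 0.0592. Of those that start at the T, the order was reversed, at 0.577 with the last C and 0.685 without it. Intervals were apart in both pairs. For the tags that start at the C before the G, 0.0117 and 0.0939, they overlapped. The last base thus had no constant relation to the ratio.

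The small rRNAs differed in where the change came. The 5.8S-like 3' end had a ratio of 2.39 (2.14 to 2.66) over 18 to 30 nt, from 658 and 643 reads. It stood at 1.17 (0.787 to 1.70) at 31 nt and 0.884 (0.510 to 1.48) at 32 nt, intervals that both include 1. At 33 nt 225 reads in lactation met 5 in involution, a ratio of 0.0543 (0.0175 to 0.129). The 5S-like 3' end had 5914 and 2534 reads over 18 to 30 nt, and the interval of its ratio included 1 (1.05, 0.998 to 1.10). That value mixed lengths that went opposite ways. At 24 nt the counts were 2044 and 236 (0.282, 0.245 to 0.323). Each length from 18 to 23 nt, and 26 and 27 nt, had a ratio between 1.18 and 1.95 with its interval above 1. Its tags of 31 to 44 nt had 359 reads in lactation and none in involution, at least 49.0-fold lower, and already at 30 nt the counts were 241 and 2.

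**Figure D3:**
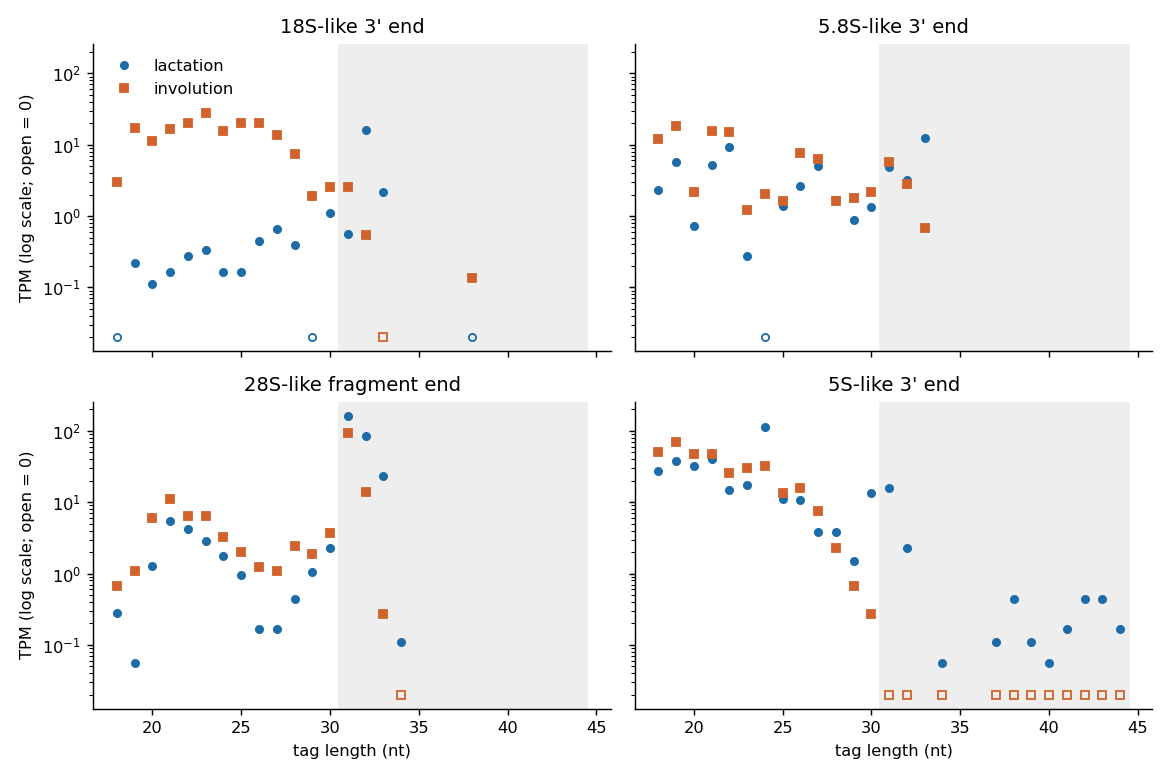
Level (TPM, log scale) by tag length (nt) of tags that share their last 18 bases, for 4 rRNA-like ends, in lactation (circles) and involution (squares). Open symbols mark 0 reads in that library, lengths with no read in either are left blank, and grey marks 31 to 44 nt. Involution lies above lactation for the 18S-like end up to 31 nt and below it at 32 nt.

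Over the 12 most abundant shared 3' ends of long tags, the long tags had a lower ratio than the tags of 18 to 30 nt at 11 ends, each with intervals that did not meet. The ends were picked by the level of their long tags, which was higher in lactation at every end. The count therefore cannot be read apart from that choice or from the trend with length. The exception was a glycine-like tRNA end, at 0.463 (0.367 to 0.578) short and 0.541 (0.415 to 0.698) long. A shared 5' start gave the same picture. Of 119 families with enough reads at both lengths, 109 had a lower ratio among the long than among the short tags, 75 of them with intervals apart, and 3 had intervals apart the other way.

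The tRNA-like tags were mainly 5' pieces. The motifs first listed (D-loop AGTGGTNA or AGNNGGTNA, T-loop GTTCNANNC) were present in 0.811%, 0.975% and 1.33% of the distinct long tags. They gave 1579 reads in lactation and 378 in involution, a ratio of 0.584 (0.521 to 0.654). They missed glycine-, lysine- and initiator-methionine-like tags and took in 37 and 6 reads with the Y-RNA start. With AGTGGTAGA, AGNNGGTAG and AGTGGCGCA added and the Y-RNA starts taken out, both after the tags had been seen, the counts were 2552 and 565, or 142 and 76.5 TPM, a ratio of 0.541 (0.493 to 0.592). Tags with a D-loop motif had 2148 and 502 reads (0.571, 0.517 to 0.629) and tags with the T-loop motif 405 and 63 (0.380, 0.287 to 0.496). Short motifs also match by sequence alone. The reverse complement of the T-loop motif stood in 180 distinct long tags against 251 for the motif itself, that of AGNNGGTNA in 75 against 184, and that of AGTGGTNA in 10 against 153, so the T-loop set in particular may hold tags of other origin. Of the reads with the T-loop motif, 225 and 27 ended in CCA (0.293, 0.189 to 0.438).

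Single tRNA-like families went different ways. The glycine-like family had 624 reads in lactation and 85 in involution, or 34.6 and 11.5 TPM (ratio 0.333, 0.262 to 0.418). Tags of 18 to 30 nt with the same start were lower as well, with 3633 and 551 reads (0.370).

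Among long tags the lysine-like families were opposed. The family that resembles lysine tRNA with anticodon CUU had 9 reads in lactation and 31 in involution, 8.41-fold higher (3.91 to 20.1), and its shorter tags had 51 and 120 reads (5.74). The family that resembles the UUU form had 44 and 1 reads, a ratio of 0.0555 (0.00137 to 0.326). Its shorter tags are not given here, so the contrast between these families covers long tags only. The initiator-methionine-like family, from the tRNA that begins translation, had 35 and 26 reads (1.81, 1.05 to 3.10), under the 2-fold bound. The valine-like family had 52 and 8 reads (0.376, 0.154 to 0.796). The 3' pieces that end in CCA had 80 and 3 reads at 32 nt (0.0916, 0.0185 to 0.277) and 67 and 5 at 31 nt (0.182, 0.0573 to 0.447), from 2 families whose main tags differ by the first G alone.

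**Figure D4:**
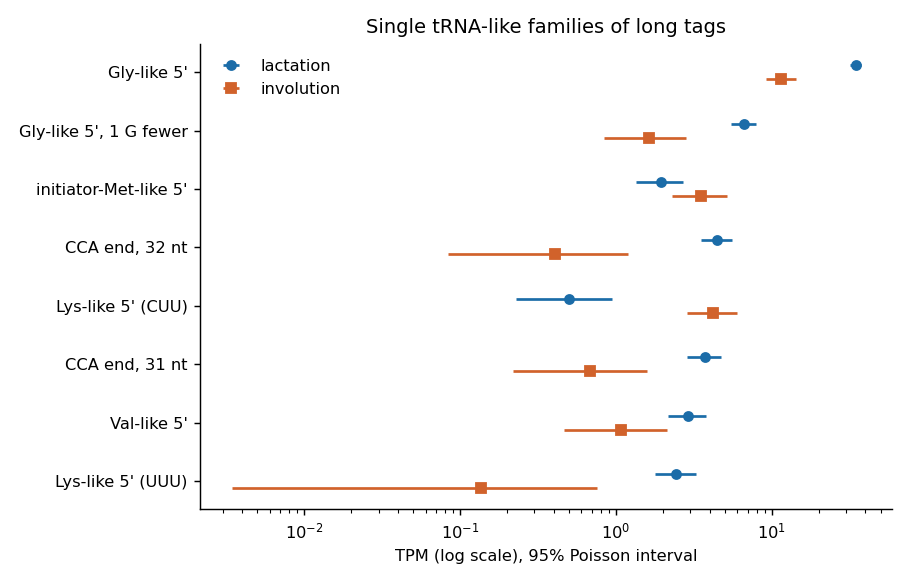
Level (TPM, log scale) of 8 tRNA-like families of long tags that reached 1 TPM, in lactation (circles) and involution (squares), with 95% Poisson intervals. The CUU lysine-like family lies higher in involution, 4.20 against 0.499 TPM, and the UUU lysine-like family lower, 0.135 against 2.44 TPM.

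Glycine-like tags also occurred with 1 G fewer at positions 6 and 7, counted from the 5' end. Over all lengths of 18 to 44 nt the shorter form was 24.1% (23.0 to 25.3%) of the glycine-like reads in lactation and 23.3% (20.4 to 26.3%) in involution, shares whose counting intervals overlap. RefSeq's gene table for assembly ARS1.2 lists 1792 goat tRNA genes, among them 30 for glycine (GCC), so these tags can come from several gene copies and cannot be placed at 1 locus.

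Adaptor content was higher in involution. Tags with an adaptor motif had 593 reads in lactation and 4380 in involution, or 32.9 and 593 TPM, a ratio of 18.0 (16.6 to 19.7). Nearly all held CCGACGATC or CAGTCCGAC of the 5' adaptor, the first in 11.6% of the distinct long tags. Of the reads with a 5' adaptor motif, 0.744% (0.203 to 1.89%) ended in it in lactation and 69.9% (68.5 to 71.3%) in involution. The share with 2 copies was 1.30% (0.525 to 2.66%) and 59.7% (58.2 to 61.2%). The authors' filtering logs show the same contrast upstream, with 0.0505% of high-quality reads removed as 5' adaptor contaminants in the log that matches the lactation total and 14.03% in the log that matches involution. Another motif of the 3' adaptor, GCCGTCTTC, added 351 and 188 reads (1.31, 1.09 to 1.57), most of them in tags with a run of A. Without the adaptor-like tags the long tags stood at 2032 and 728 TPM, a ratio of 0.358 (0.348 to 0.368).

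Tags made of 2 miRNAs joined end to end were far more frequent in lactation. A miRNA is a short regulatory RNA of about the length of each part. Lacking reference sequences, abundant tags of 18 to 26 nt stood in for mature miRNAs. By 2 separate matches of 16 bases to the 89 tags that reached 1000 TPM, 1141 reads in lactation and 36 in involution were joined, a ratio of 0.0770 (0.0537 to 0.107). With parts at 200 TPM, a level chosen after the data had been seen, 3433 and 48 reads were joined over their whole length (0.0341, 0.0251 to 0.0454). Of the lactation reads among these, 63.4% joined miR-22 to miR-21, in 2175 reads against 1 in involution, and 396 against 1 joined miR-21 to itself. The 16-base rule leaves out this leading pair and classes it as miRNA-like, because no miR-22 tag reached 1000 TPM. Tags of 18 to 30 nt with the miR-22 start had 2076 and 1938 reads, and those with the miR-21 start 336091 and 149889. The second part is in capitals.
miR-22 and miR-21: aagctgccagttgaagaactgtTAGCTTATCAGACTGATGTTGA
miR-21 and miR-21: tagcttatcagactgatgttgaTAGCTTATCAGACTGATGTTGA

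Families were defined as long tags with the same first 18 bases. There were 11662, of which 8439 held 1 read, and 281 reached 1 TPM in a library. A family was called higher from a ratio of 2 and lower from 0.5 downward, provided that its interval did not reach 1. Of the 281, 82 (29.2%) were higher in involution, 160 (56.9%) lower and 39 neither. Among 10750 families of tags of all lengths, 44.8% were higher and 10.1% lower by the same rule, so the long tags had the reverse balance. The median log2 ratio was -1.94 for the long families and 0.89 for families of all lengths. All 74 adaptor-like families were higher. The 1 family of the added 3' adaptor motif was neither. Of the remaining 206, 8 were higher, 160 lower and 38 neither, with a median log2 ratio of -2.89.

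By class the lower calls were spread widely. Of 44 28S-like families 28 were lower and 2 higher, or 26 and 2 of 42 without 2 that resemble glutamine tRNA. Of 5 18S-like families 4 were lower and 1 higher, of 7 5.8S-like families 5 were lower, and all 4 5S-like families were lower. Of 10 tRNA-like families 6 were lower and 1 higher. Of 28 miRNA-like families 16 were lower and of 7 joined families 6, with none higher, and of 99 unrecognised families 89 were lower and 4 higher. The trend with length was not removed from these counts.

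**Figure D5:**
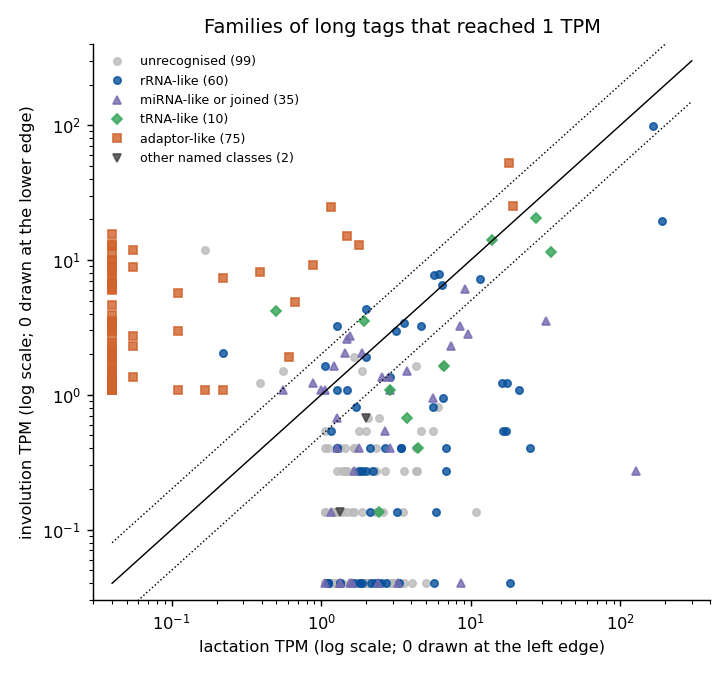
Level in lactation against level in involution (TPM, both axes log scale) for the 281 families of long tags that reached 1 TPM, marked by class. The solid line marks equal levels, the dotted lines 2-fold, and 0 is drawn at the edge. Adaptor-like families fill the upper left, and 160 families lie below the lower dotted line with intervals beyond 1.

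The most abundant families were 28S-like. The family that begins with the T of the run TGGGGGG had 2974 reads in lactation and 724 in involution (165 and 98.0 TPM). The family that begins 1 base earlier had 3402 and 144 (189 and 19.5 TPM), and the one that begins 2 bases earlier had 446 and 3 (24.7 and 0.406 TPM). By mean level the family with the miR-22 start stood next after the first 2, with 2288 and 2 reads, whose main tag is miR-22 joined to miR-21. The 2 families that begin at or 1 base before CGGCGCC and hold CTTAGAACT, also 28S-like, had 380 and 8 reads (0.0514, 0.0220 to 0.102) and 316 and 9 (0.0695, 0.0315 to 0.134). Another 28S-like place, with the motif ACTCTGGAC, had a family of 208 and 53 long reads (0.622, 0.451 to 0.845). Like the most abundant family, it was called neither higher nor lower. Its shorter tags were higher in involution, with 6397 and 9072 reads (3.46).

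Among families of at least 5 TPM, 16 had no lactation read and so tie for the highest ratio. All 16 were adaptor-like, with 44 to 116 reads in involution, at least 35.8-fold to 94.4-fold higher. The 8 lowest belonged to 2 families whose main tag is miR-22 joined to miR-21, 2 5S-like families, the 18S-like 32-nt family at 311 and 4 reads, the 28S-like 33-nt family, another 28S-like family at 103 and 0, and an unrecognised GC-rich family at 196 and 1. The main 5S-like family had 330 reads in lactation and none in involution, at least 45.1-fold lower.

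Among the 8 non-adaptor families that were higher, 1 stood far from the rest. It was picked out after its values had been seen. Its main tag, of 33 nt, is predicted by RNAfold to form a stem of 8 base pairs (capitals, -15.9 kcal/mol) with 4 unpaired bases at the 3' end, of which the last 3 are CCA.
hairpin-like tag: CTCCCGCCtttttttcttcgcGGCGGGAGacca

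This family had 3 reads in lactation and 88 in involution, 71.6-fold higher (23.7 to 353.9). Its sequence resembles the stem-loop at the light-strand replication origin of mammalian mitochondrial DNA, which lies among tRNA genes, but no mitochondrial sequence was used here to check this. Tags of all lengths with the same last 13 bases had 2 reads in lactation and 1332 in involution, or 0.111 and 180 TPM, a ratio of 1626 (449 to 13440). Tags that lack only the final A had 0 and 27 reads. Another of the higher families, at 0 and 12 reads, is the same sequence without its first 2 bases. The remaining 6 had 4 to 36 reads in lactation and 9 to 32 in involution. They included the family of the 18S-like 31-nt tag and the CUU lysine-like family.

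The share of first-base T was far lower in long than in miRNA-sized tags. The gap was much smaller once adaptor-like and miRNA-matching tags were set aside. Among tags of 18 to 30 nt, 77.8% of reads in lactation and 72.4% in involution began with T (U in RNA), the base miRNAs favour. Among the long tags this was 29.6% (29.2 to 30.1%) and 27.3% (26.4 to 28.1%). In lactation A began 20.7%, C 22.7% and G 26.99% of long reads, and in involution 28.3%, 23.9% and 20.5%. Without adaptor-like and miRNA-matching tags, T began 28.6% of reads in lactation and 35.6% in involution, and G 29.7% and 23.7%. Of the distinct tags in this set, T began 23.56% and 24.25% and G 25.19% and 24.63%. The contrast between the stages thus lay in read counts of abundant tags and hardly in distinct tags. Tags of 18 to 30 nt without those tags began with T in 32.1% and 30.4%, above the long ones in lactation and below them in involution. A and G also differed between these 2 sets. A began 15.3% and 15.7% of the long reads in lactation and involution, against 26.3% and 27.3% of the shorter reads. For G the shorter reads had 19.5% and 18.0%, below the long ones. Long tags were richer in G and C, at 57.3% and 54.9% of bases against 45.7% and 46.4% in the shorter tags. They ended in C in 45.5% of lactation reads and 62.2% of involution reads. Without adaptor-like tags these shares were 46.2% and 51.9%, and without miRNA-matching tags as well 53.0% and 54.3%.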

How the data were processed

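Each library is 1 pool of 5 goats. The deposited files list distinct clean tags with their length and read counts, which the authors made, per the note deposited with the files, by quality filtering, trimming the 3' adaptor, discarding 5' adaptor contaminants, short and polyA tags, and collapsing identical reads. That note gives a range of 18 to 30 nt, but tags reached 44 nt. For mapping, tool versions and a genome build, nothing is given in the sources used here. The deposited logs hold read counts per step and were matched to a library by the clean total.

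The members, lists and rules were chosen with earlier results of these data known. Counts were divided by the library total. Ratio intervals are conditional Clopper-Pearson, levels exact Poisson, shares exact Clopper-Pearson, all at 95%. PCR copies were not marked, so intervals cover counting error only. Each tag took the first class that applied: joined miRNAs (2 separate 16-base matches to 89 abundant tags of 18 to 26 nt), adaptor-like, miRNA-like, tRNA-like, Y-RNA-like, rRNA-like start, snRNA-like, C/D-snoRNA-like (C box within 12 bases of the start), other. Mature miRNA sequences were to serve in the joined and miRNA classes; the abundant tags replaced them, and 1 of the 89 resembles 28S rRNA, so a few miRNA-like families may be rRNA. The 18S-, 28S-, 5.8S- and 5S-like motifs inside the last class, and the glutamine-tRNA-like stretch, were added after the tags had been seen. Named families are the 15 most abundant, the 8 highest and 8 lowest ratios at 5 TPM or more, up to 4 per class, and others said to be picked later; 1 kind of tRNA-like tag is not reported singly here, though sums and counts include it. The ratio code was tested on simulated counts. Python 3.11.15, numpy 2.4.6, scipy 1.17.1, ViennaRNA 2.7.2, R 4.3.3 and edgeR 4.0.16 (TMM factors alone) were used. Alternatives covered scaling, tags seen once, length bounds, family definition, level filter, thinning, and motif or match rules.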

Additional observations from a re-analysis of the deposited data

How the results depend on the processing

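The long tags stayed lower in involution except where they were scaled to themselves, which sets the ratio to 1. The ratio of 0.646 was 0.471 with median-of-ratios factors, 0.483 with those of TMM, 0.517 without tags seen once, 0.744 for 31 to 40 nt and 0.358 without adaptor-like tags (added after the data had been seen). The 82 higher families became 27 at 5 TPM, 213 with no filter and 8 without adaptor-like tags. The 160 lower families became 27 at 5 TPM and stayed from 127 to 239 otherwise. The tRNA-like ratio of 0.584 was 0.426 with median-of-ratios factors, which shift all log2 ratios by -0.46, and 0.905 against long tags alone. The joined ratio of 0.0770 was 0.0126 without tags seen once, 0.229 for 31 to 40 nt and 0.0341 with parts at 200 TPM.

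Some families changed direction. Within 31 to 40 nt, where joined tags are cut off, families starting like miR-21, miR-148a, miR-143, let-7a, let-7b and miR-27 had ratios of 2.31, 1.90, 1.63, 2.82, 1.05 and 1.63. Joined tags are not the only mixed kind in these families. The main tags of the let-7a and miR-27 families end in the adaptor motif CCGACGATC. Among all long tags, 195 reads in lactation and 373 in involution held both an adaptor motif and a miRNA match. How far such tags account for the ratios within 31 to 40 nt was not tested. Against long tags alone the let-7a family stood at 1.04. The 3' adaptor family stood at 0.959 under median-of-ratios factors and at 0.984 under those of TMM.

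No paired analysis was possible because each stage has 1 library, and no library was left out for the same reason. Families near 1 TPM rest on few reads, so counting error limits their ratios.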
